A study of Rattus norvegicus with 12 samples.

Results

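The genes described here are 37 of the 14217 genes named by a single symbol on the array, and each of them gave a lower signal in each of 6 rats exposed to a new environment than in any of 6 control rats. They were chosen by that pattern: a mean log2 intensity of at least 8 over the 12 arrays, no overlap between the groups, and a mean log2 difference (exposed minus control) of -0.2 or less at the brightest probe set of the gene. All values of this comparison are therefore given as descriptions with no test, because the same values selected the genes. All 12 animals were male Long Evans rats 6 weeks old that had been housed alone for some days. The exposed group spent 3 h in surroundings new to them, with objects of varied shape and colour, and the control group stayed in a standard laboratory cage. Total RNA of the forebrain was measured on 1 Affymetrix rat array per animal. The labels name no group moved to a familiar cage, so transfer to another place and its novelty cannot be told apart. In tissue RNA of this kind, fewer cells of a type and less RNA per cell cannot be told apart either.

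A stay in new surroundings makes many forebrain neurons fire, and their first known response in RNA is a surge of immediate early genes such as Fos and Egr1. The level of a messenger RNA at any time reflects both how fast it is made and how fast it is degraded, and transcripts of regulators such as feedback inhibitors of signalling are often short-lived. The differences described here are small beside those of the early genes. Among 19 immediate early transcription factors measured, 13 were called higher in limma and 0 lower (15 and 0 at an unadjusted p under 0.05), and the median log2 difference of that list was 0.95, against -0.26 for the 37 genes.

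The arrays were alike in brightness, with median intensities from 235 to 245 in arbitrary linear units. Exposed animals 3 and 5 had the lowest median correlation with the other arrays of their group, 0.992 and 0.991 over 8956 genes, against 0.994 to 0.996 for the other 10 animals. Exposed animal 3 also had the largest signal at the 3 prime end of Gapdh and beta-actin relative to the 5 prime end, a sign of RNA quality, at 0.59 on the log2 scale. The other 5 exposed animals ran from 0.39 to 0.44 and the control animals from 0.33 to 0.44. The group means were 0.45 ± 0.07 (SD, n = 6) in exposed and 0.39 ± 0.05 (SD, n = 6) in control animals, and an exact two-sided permutation test gave p = 0.0823. Member values without exposed animal 3, and with this measure in the fit, are given after the genes themselves.

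Of 8956 genes with a mean log2 intensity of 8 or more, 143 had a difference of -0.2 or less, and in 41 of these the groups did not overlap (0.458% of the 8956). Dropping the symbol families Kcn, Klf, Ptpn, Ptpr, Dclk, Arhg, Gri, Grm and Slco removed Dclk3, Kcna4, Ptprdl and Slco1a4 and left 37. Without the limit on the size of the difference, 104 genes (1.16%) lay below every control in all exposed animals and 299 (3.34%) lay above. The same rule turned upwards, with no symbol families dropped, took 197 genes (2.2%), to be set beside the 41. The median log2 difference was -0.26 over the 37 genes and -0.01 over all 8956. Just inside the limit on the difference were Drg1 (log2 difference -0.202), Gfpt2 (-0.203) and Rffl (-0.212), and just outside were Ercc5 (-0.1997), Rbm5 (-0.197) and Gtf2ird1 (-0.197). At the limit on the level, Ccdc177 (mean log2 intensity 8.02), Zfp9 (8.03) and Abca8 (8.17) were inside, and Wnt9a (7.97), LOC102549303 (7.84) and Erg (7.76) outside. In Ramp3, Tmem203 and Gucy1a1 the groups were apart by only 0.0016, 0.0028 and 0.013 on the log2 scale, while in Slc7a4, Chrac1 and Sec22a the gap was -0.00203, -0.00248 and -0.00416 and 5 of 6 exposed animals were below every control.

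**Figure D1:**
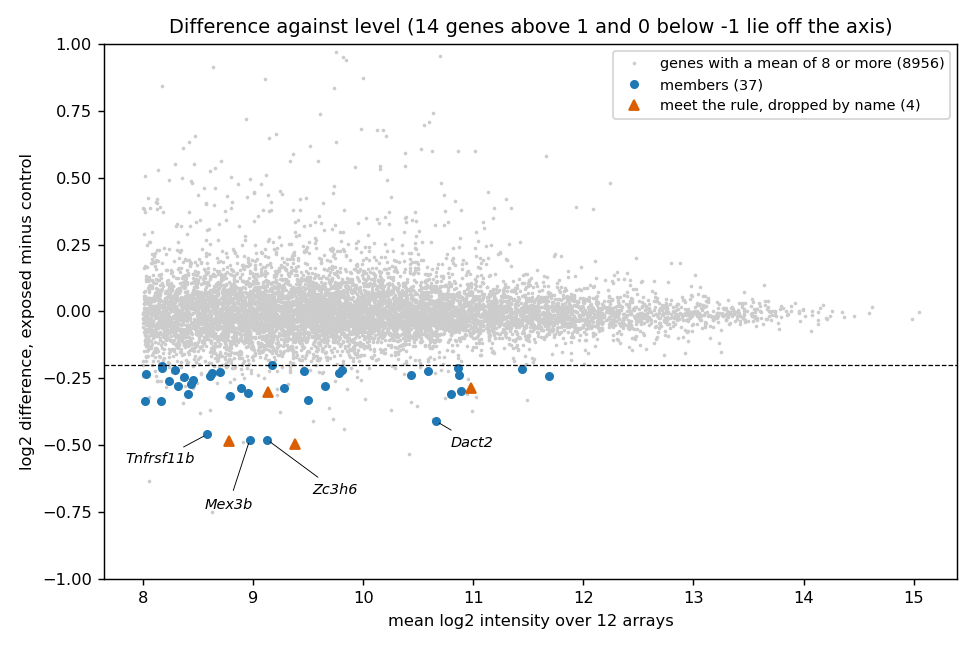
The horizontal axis is the mean log2 intensity over 12 arrays and the vertical axis the log2 difference (exposed minus control), with grey points for the 8956 genes with a mean of 8 or more, blue points for the 37 genes and triangles for the 4 that were dropped by name. The 37 genes run from -0.48 to -0.20 at levels from 8.02 to 11.69, and the 14 genes above 1 lie off the axis.

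The largest differences belonged to Mex3b and Zc3h6, 1.40-fold lower each, followed by Tnfrsf11b (1.38-fold) and Dact2 (1.33-fold). Expressed as a share of the control level, the 37 genes were lower by 13.1% to 28.3%, with a median of 16.4%. The control mean intensity ran from 284 for Zfp9 to 3590.5 for Klhl23, with a median of 553. The 37 genes fell into 7 broad groups by known role, which were set after their names were seen. Membrane, adhesion and transport proteins (6 genes) had a median log2 difference of -0.30, transcription factors and cofactors (4) -0.28, RNA-binding and RNA-processing proteins (7) -0.27, signalling proteins (8) -0.25, enzymes of metabolism (4) -0.25, proteins of trafficking and turnover (3) -0.24 and little described or other genes (5) -0.24.

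Bases before the transcription start of 3 genes are shown because these have the largest differences among the 30 of 37 genes with an entry in the RefSeq promoter table (build GRCr8). Each stretch is the 250 bases upstream of the start, written 5′ to 3′ on the strand of the gene. Capitals mark matches on either strand to GGGCGG (the GC box bound by Sp1), CCAAT (bound by NF-Y) or GCGNGGGCG (the site of Egr proteins), which can overlap one another.
Mex3b, chr1:146264069-146264318, plus strand: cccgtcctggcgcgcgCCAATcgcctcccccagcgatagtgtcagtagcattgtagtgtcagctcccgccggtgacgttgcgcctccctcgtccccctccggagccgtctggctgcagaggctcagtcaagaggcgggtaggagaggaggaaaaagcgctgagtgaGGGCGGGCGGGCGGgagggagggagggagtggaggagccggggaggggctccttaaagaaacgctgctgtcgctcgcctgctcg
Zc3h6, chr3:136657164-136657413, plus strand: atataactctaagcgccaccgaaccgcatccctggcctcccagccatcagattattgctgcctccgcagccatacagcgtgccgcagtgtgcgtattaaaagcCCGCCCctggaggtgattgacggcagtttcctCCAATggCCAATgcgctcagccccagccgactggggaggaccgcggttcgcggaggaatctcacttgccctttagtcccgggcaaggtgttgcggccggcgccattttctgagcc
Dact2, chr1:63863099-63863348, minus strand: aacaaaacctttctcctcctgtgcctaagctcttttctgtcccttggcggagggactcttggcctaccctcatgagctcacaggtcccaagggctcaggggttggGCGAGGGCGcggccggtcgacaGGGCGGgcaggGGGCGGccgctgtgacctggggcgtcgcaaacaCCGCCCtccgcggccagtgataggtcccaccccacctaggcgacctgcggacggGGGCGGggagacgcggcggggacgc

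The stretch of Mex3b holds 3 overlapping GC boxes and 1 CCAAT box, that of Zc3h6 holds 1 and 2, and that of Dact2 holds 4 GC boxes, no CCAAT box and 1 Egr match. Over the 30 genes the GC box was present in 66.7%, against 61.8% of 7495 genes on the array with a mean of 8 or more and 32.4% of all 27457 promoters. The CCAAT box was present in 12 of 30 (40%), against 35.8% and 34.3%. The Egr site was present in 4 of 30 genes (Dact2, Hnrnpdl, Ptgr3 and Rab3d; 13.3%, against 9.45% and 4.53%). Searches for the cAMP response element TGACGTCA, the AP-1 site TGANTCA and the RBPJ core GTGGGAA found none in the 30 stretches. The shares of the array genes with these were 3.22%, 3.87% and 5.23%, and of all promoters 1.70%, 6.36% and 5.22%. The E-box CACGTG was in Hnrnpdl and Nrarp (6.67%, against 8.69% and 5.79%), and TATAAA was in Fv1 (3.33%, against 5.87% and 13.1%). The median GC content was 62.4% for the 30 genes, 61.2% for the array genes and 52.0% for all promoters. Matches are descriptions of letters and say nothing of binding.

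Mex3b, an RNA-binding protein with KH and RING domains that acts on the messenger RNA it binds, ran from 554 to 621 with a median of 592 in control animals. In exposed animals it ran from 371 to 468 with a median of 425, and the means were 592 ± 24.3 and 425 ± 32.8 (SD, n = 6). The gap of 0.25 between the lowest control and the highest exposed animal was the widest of the 37 genes on the log2 scale. Zc3h6, a CCCH zinc finger protein, ran from 561 to 733 (median 670) in control and from 424 to 514 (median 483) in exposed animals. The means were 663 ± 56.0 and 475 ± 37.1 (SD, n = 6). Control animal 5 was low at 561, and the other 5 control animals lay at 667 or more. Rbm11, a splicing regulator, ran from 444 to 566 (median 483) in control and from 333 to 440 (median 410) in exposed animals, a log2 difference of -0.32 with the groups nearly touching. Hnrnpdl, a relative of hnRNP D and the brightest gene of this role, ran from 2868 to 3196 in control and from 2335 to 2749 in exposed animals (log2 difference -0.22). Mblac1, a nuclease that trims histone transcripts, ran from 349 to 398 in control and from 284 to 334 in exposed animals (-0.27). Gtpbp3, which modifies mitochondrial transfer RNA, ran from 396 to 452 and from 329.8 to 388 (-0.23), and Drg1, a ribosome-associated GTPase, from 594 to 644 and from 482 to 579.7 (-0.20).

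Among signalling genes, Tnfrsf11b codes for osteoprotegerin, a secreted decoy that binds ligands of the TNF family. It ran from 396 to 556 (median 422) in control and from 241 to 362 (median 349) in exposed animals. It had the largest spread of the 37 genes in both groups, with an SD of 0.20 in control and 0.23 in exposed animals on the log2 scale. Dact2, an inhibitor within the Wnt and TGF-beta pathways, ran from 1644 to 2312 (median 1845) in control and from 1270 to 1553 (median 1395) in exposed animals. Nrarp, a feedback inhibitor that Notch signalling switches on, ran from 633 to 735 (median 680) in control and from 527 to 623 (median 559) in exposed animals, with the highest exposed value in animal 3. Ramp3, which pairs with the calcitonin receptor family, ran from 358 to 438 in control and from 271 to 357 in exposed animals, so that the groups were barely apart. Gucy1a1, a subunit of the nitric oxide receptor guanylate cyclase, ran from 1906 to 2106 (median 2085) in control and from 1554 to 1889 (median 1738) in exposed animals. Akap7, which anchors protein kinase A (log2 difference -0.22), Fgfbp3, a secreted carrier of FGF (-0.22), and Macir, a regulator described in macrophages (-0.21), had smaller differences.

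**Figure D2:**
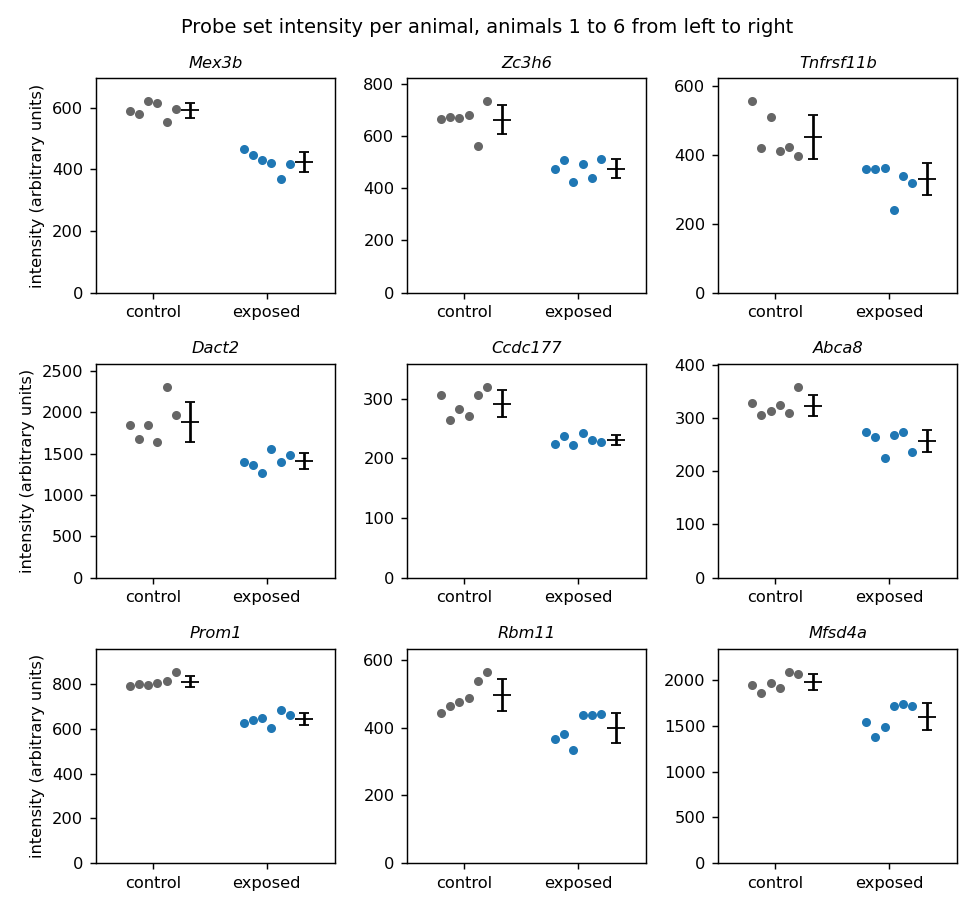
Each panel plots the probe set intensity (arbitrary linear units, from 0) of 1 of the 9 genes with the largest differences, with a point per animal numbered 1 to 6 from left to right within each group and bars for the mean and SD (n = 6). In Mex3b the highest exposed animal is at 468 and the lowest control at 554, while in Rbm11 these are 440 and 444.

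Prom1, a protein of membrane protrusions also known as CD133, ran from 791 to 858 (median 806) in control and from 606 to 684 (median 646) in exposed animals. Its difference was 6.35 times the pooled within-group SD, the highest such ratio of the 37 genes (median 2.85). Abca8, a lipid transporter of the ABC family, ran from 305 to 359 (median 319) in control and from 225 to 273 (median 266) in exposed animals. Mfsd4a, a transporter of the major facilitator family, ran from 1866 to 2095 (median 1962) in control and from 1384 to 1740 (median 1634) in exposed animals. Cdh10, a cadherin of neurons, ran from 1974 to 2262 (median 2071) in control and from 1465 to 1879 (median 1710) in exposed animals. Exposed animal 5 gave the lowest Cdh10 value. Vstm5, an immunoglobulin-domain protein of the neuronal membrane, and Tmem203, a protein of the endoplasmic reticulum, both had a log2 difference of -0.22.

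The transcription group was narrow in size. Csrp2, a LIM-domain cofactor, ran from 475 to 562 (median 532) in control and from 396 to 449 (median 443) in exposed animals. Tox, a DNA-binding protein with an HMG box, ran from 850 to 956 (median 878) in control and from 702 to 765 (median 724) in exposed animals, and had one of the wider gaps (0.15). The zinc finger genes Zfp40 (log2 difference -0.28) and Zfp9 (-0.23) were among the dimmer members, with control means of 353 ± 19.3 and 284 ± 18.0 (SD, n = 6).

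Among enzymes, Ppat catalyses the first committed step of purine synthesis. It ran from 509 to 605 (median 545) in control and from 347 to 498 (median 458) in exposed animals, the lowest in exposed animal 3. Hs3st1, which adds 3-O-sulfate to heparan sulfate, ran from 1404 to 1571 (median 1498) in control and from 1203 to 1373 (median 1255) in exposed animals. Ptgr3, a prostaglandin reductase (log2 difference -0.26), and Gfpt2, which starts the hexosamine pathway (-0.20), were dimmer. Gfpt2 had the smallest spread of the 37 genes in exposed animals, 264 to 273. In the trafficking and turnover group, Rab3d, a small GTPase of secretory vesicles, ran from 355 to 437 in control and from 284 to 329 in exposed animals (-0.31). Klhl23, a Kelch-like protein and the brightest of the 37 genes, ran from 3410 to 3838 in control and from 2835 to 3350 in exposed animals (-0.24), and the RING ubiquitin ligase gene Rffl had a difference of -0.21. The remaining genes were Ccdc177 (-0.34), C2h3orf80 (-0.25), Pced1b (-0.24), Fv1 (-0.23) and Erich2 (-0.22). Ccdc177, a coiled-coil protein, ran from 264 to 321 in control and from 223 to 242 in exposed animals.

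The 37 genes did not follow the same order of animals, but some animals were extreme more often than others. Exposed animal 3 gave the lowest exposed value for 21 of 37 genes (56.8%, against 34.0% of all 8956 genes), and exposed animal 6 the highest for 12 (32.4%, against 20.9%). Among control animals, animal 2 was lowest for 15 genes (40.5%, against 23.8%) and animal 6 highest for 12 (32.4%, against 22.1%). Averaged over the 37 genes, exposed animals were below the control mean by a log2 difference of -0.23 (animal 6) to -0.38 (animal 3), and control animals ran from -0.05 (animal 2) to 0.04 (animal 6). The median SD within control animals was 0.08 for the 37 genes and 0.07 for all 8956, and within exposed animals 0.10 and 0.08. In 27 of the 37 genes (73.0%) the SD was larger in the exposed group, against 60.0% of all 8956 genes.

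**Figure D3:**
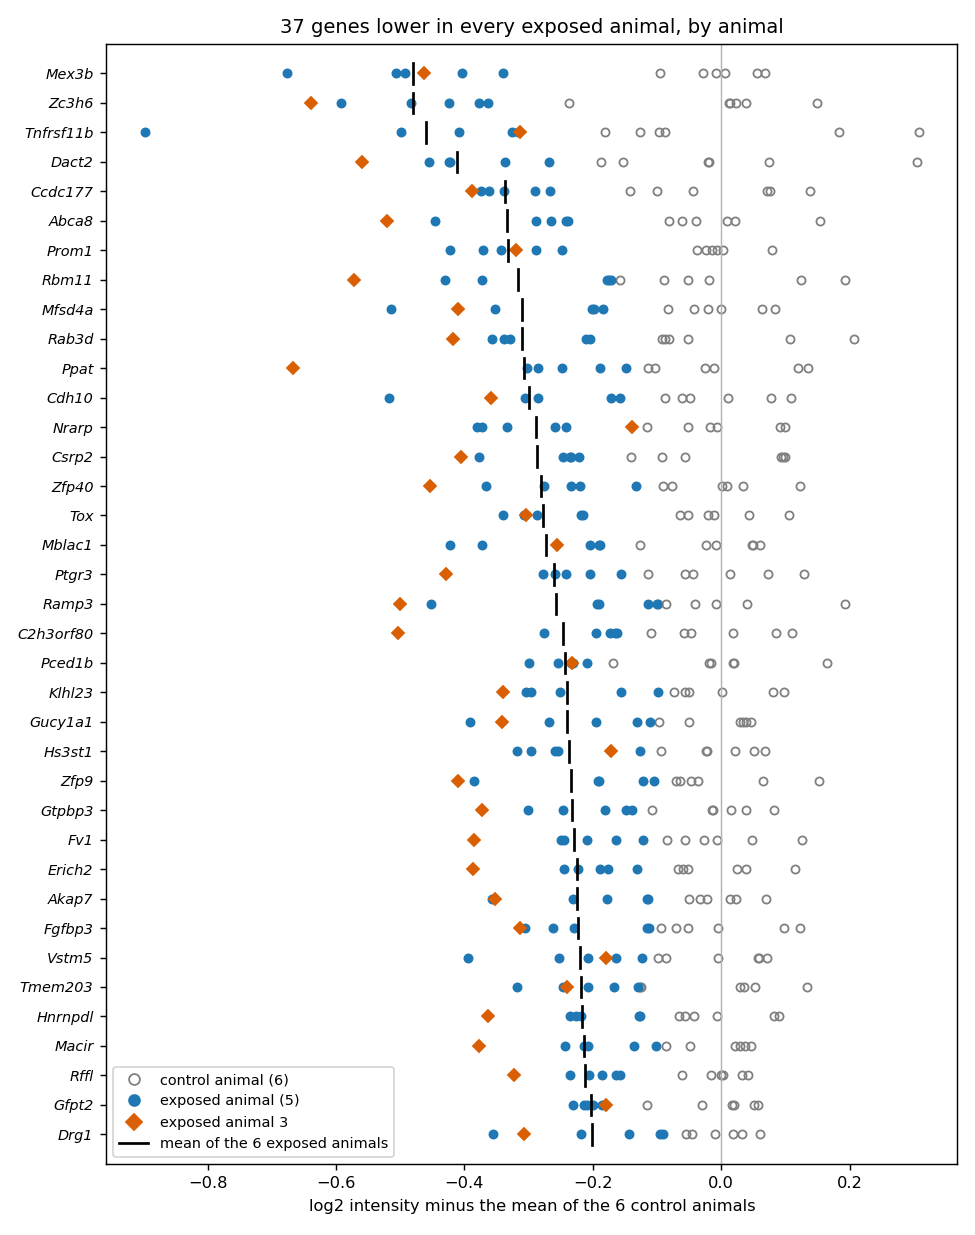
Each row is 1 of the 37 genes in order of difference, the horizontal axis is the log2 intensity minus the mean of the 6 control animals, open circles are control animals, filled circles 5 exposed animals, diamonds exposed animal 3 and black bars the mean of the 6 exposed animals. Exposed animal 3 is the lowest point in 21 rows, whereas in Nrarp it is the highest exposed point.

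Without exposed animal 3, the median difference of the 37 genes was -0.23, and 28 of them had a difference of -0.2 or less. With the 3 prime minus 5 prime measure as a covariate over all 12 animals, all 37 differences stayed negative, their median was -0.21 and 21 were at -0.2 or less. The difference was smaller with the covariate for 29 genes and at least as large for 8. The smallest shares were kept by Ppat, from -0.31 to -0.17, Ramp3, from -0.26 to -0.16, and Rbm11, from -0.32 to -0.20. With the covariate the log2 difference was -0.49 for Mex3b, -0.45 for Zc3h6, -0.34 for Prom1 and -0.28 for Tox, and the differences of Tnfrsf11b (-0.58), Nrarp (-0.35) and Hs3st1 (-0.27) were larger. Leaving out exposed animals 3 and 5 together, an alternative chosen after seeing the data, gave a median of -0.23 with 27 genes at -0.2 or less.

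**Figure D4:**
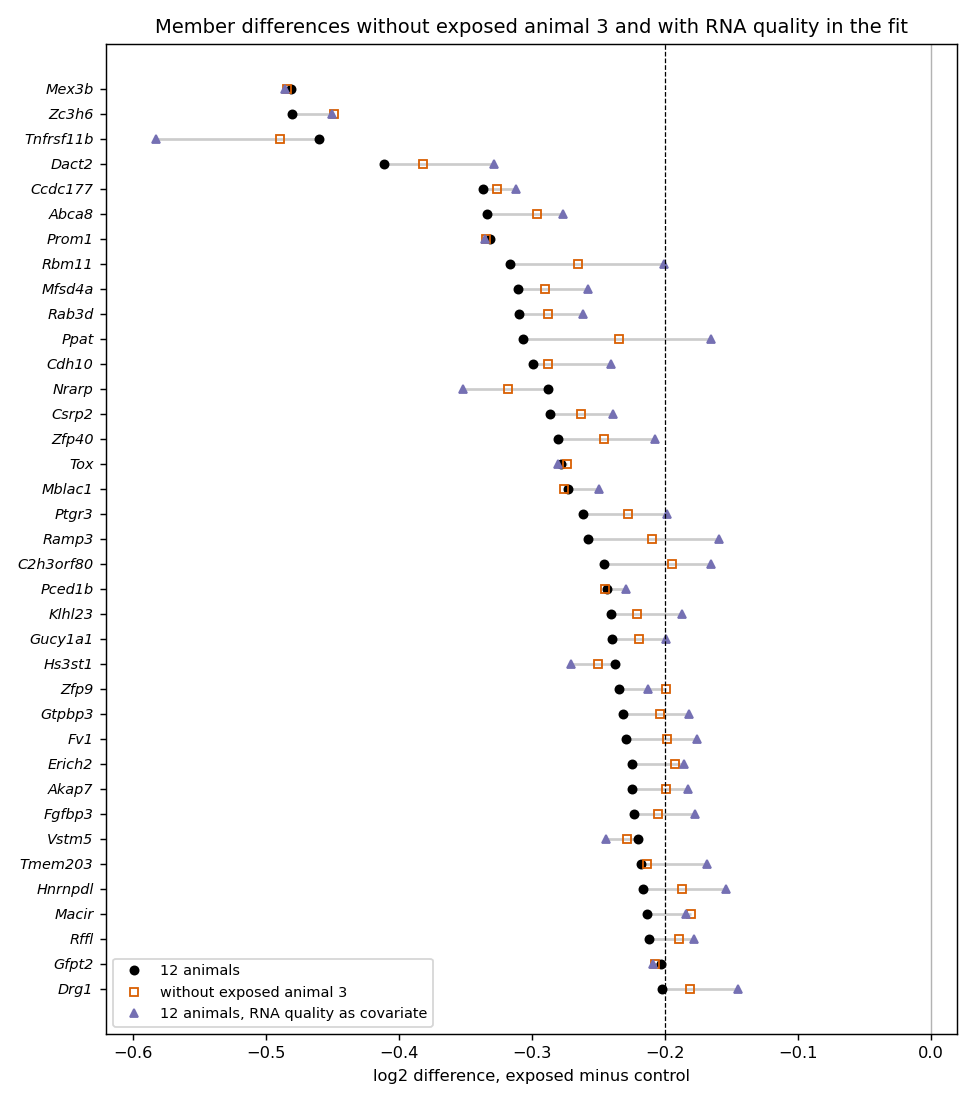
For each of the 37 genes (rows), the log2 difference, exposed minus control, is plotted for 12 animals (black circles), without exposed animal 3 (open squares) and with RNA quality as a covariate (triangles), with a dashed line at -0.2. The triangles of Ppat, Ramp3 and Rbm11 are farthest to the right of their circles, and those of Tnfrsf11b and Nrarp lie to the left.

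A further probe set was present for 10 of the 37 genes, and for 27 genes the brightest was the only one. Of the 13 further probe sets, measured on the same RNA, 10 had a negative difference and 6 a difference of -0.2 or less, with a median of -0.18. In 3 of the 13, those of Gucy1a1 and Akap7 and 1 of Nrarp, all 6 exposed animals lay below every control. In that of Ptgr3 3 of 6 exposed animals did, and in those of Klhl23 5 and 4. For Gucy1a1, whose brightest probe set differed by -0.24, the further one ran from 769 to 876 in control and from 504 to 670 in exposed animals, a log2 difference of -0.47. The further probe sets of Ptgr3 (-0.43), Nrarp (-0.38), Akap7 (-0.31) and Klhl23 (-0.29 and -0.26) were also lower by more than the brightest one. Those of Hnrnpdl differed by -0.16 and -0.06 and that of Tox by -0.18. The further probe sets of Abca8 and the dimmest of Nrarp were at the floor of 53.8 on all arrays, and those of Ccdc177 (-0.05) and Rffl (0.06), with mean log2 intensities of 5.79 and 5.86, lay just above it. With the mean of all probe sets in place of the brightest, 32 of the 37 genes still met the rule. These 32 include the 27 genes without a further probe set, whose values could not change. The check therefore bears only on the other 10 genes, and all genes that no longer met the rule were among those 10.

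**Figure D5:**
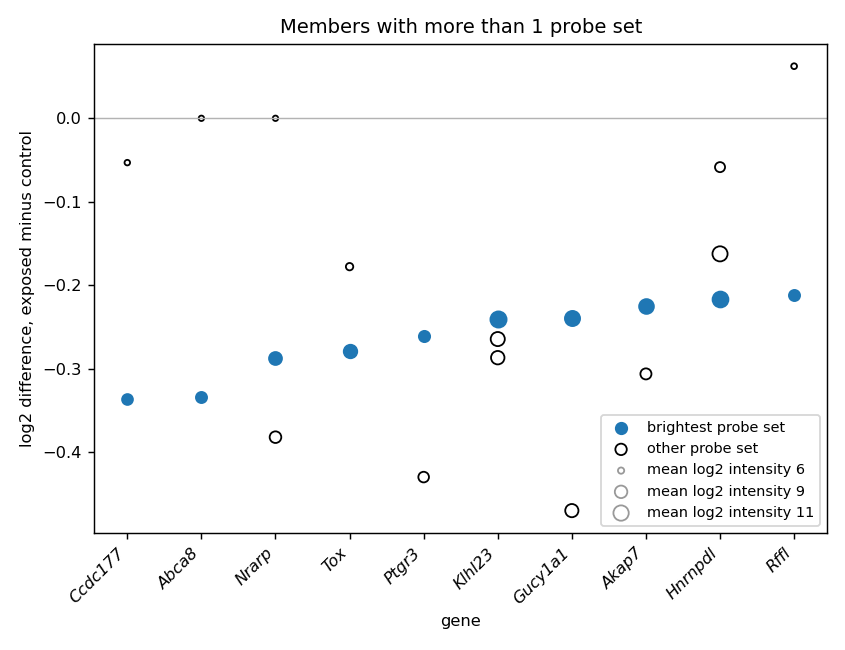
For the 10 genes with more than 1 probe set (horizontal axis), the log2 difference, exposed minus control, is plotted for the brightest probe set (filled) and each further one (open), with a point area that grows with mean log2 intensity. The open points of Ccdc177, Abca8 and Rffl and the upper one of Nrarp, from -0.05 to 0.06, have the smallest areas, and the lowest open point is that of Gucy1a1 at -0.47.

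Relatives and partners of the 37 genes were then compared between the groups in limma, with p-values adjusted by Benjamini-Hochberg over 31042 probe sets. In this fit 120 of 14217 genes (0.844%) were lower and 372 (2.62%) higher. The first count was 60 to 120 with 1 animal left out (61, 68 and 69 without control animal 3, 5 and 6, 60 and 75 without exposed animal 1 and 2) and 38 with the RNA quality covariate. A relative that met the rule would itself be among the 37, so those described here are genes that missed it. Of 121 relatives and partners in 23 sets, which were drawn up after the 37 names were seen, 1 was lower (0.826%) and 3 higher, with a median log2 difference of -0.00. The 3 other Mex3 genes, which share the KH and RING domains of Mex3b, had log2 differences of 0.07 for Mex3a, 0.14 for Mex3c and -0.05 for Mex3d (adjusted p = 0.780, 0.245 and 0.904 in limma). Of 12 other Zc3h genes Zc3h7a was lower by a small amount, from 556 ± 7.90 to 529 ± 6.90 (SD, n = 6; log2 difference -0.07, adjusted p = 0.0139 in limma), and 0 were higher (1 at an unadjusted p under 0.05). Dact1 and Dact3 had log2 differences of -0.10 and -0.05 (adjusted p = 0.533 and 0.818 in limma). Hnrnpd, the closest relative of Hnrnpdl in the set, had a difference of -0.11 that missed the threshold (adjusted p = 0.0770 in limma). Of 10 other classical cadherins, relatives of Cdh10, 7 had a negative difference, with a median of -0.09. In limma 0 of these were called, with 2 lower (Cdh1, -0.21, and Cdh7, -0.11) and 1 higher (Cdh11, 0.09) at an unadjusted p under 0.05.

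Partners in signalling gave values of both signs. Gucy1b1, the subunit that Gucy1a1 needs to form the nitric oxide receptor, had intensities of 3373 ± 310 in control and 3311 ± 159 in exposed animals (SD, n = 6; log2 difference -0.02, adjusted p = 1.00 in limma). Nos3, a nitric oxide synthase measured near the floor, was higher, from 70.1 ± 3.87 to 102 ± 17.0 (SD, n = 6; log2 difference 0.53, adjusted p = 0.0172 in limma). Whether Gucy1a1 differed from these genes in its response was not tested. Of the 7 relatives and partners of Ramp3, 0 were called in limma and 0 had an unadjusted p under 0.05. Ramp1, Ramp2 and the receptor Calcrl had log2 differences of -0.03, 0.07 and -0.03. The osteoprotegerin ligands Tnfsf11 and Tnfsf10 were at the floor of 53.8 on all arrays.

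Notch genes beside Nrarp also went both ways. The Notch target Hes1 was 1.31-fold higher, from 249 ± 15.8 to 326 ± 17.6 (SD, n = 6; adjusted p = 0.00179 in limma), while Hes5 had a log2 difference of -0.26 that missed the threshold (adjusted p = 0.139 in limma). Of 34 Notch pathway genes apart from Nrarp, 2 were higher, Hes1 and the Notch inhibitor Numb (1.29-fold, adjusted p = 0.000157 in limma), and 0 lower. At an unadjusted p under 0.05, 2 were lower and 7 higher. Of 63 Wnt pathway genes apart from Dact2, Wnt9a was lower (1.22-fold, adjusted p = 0.0173 in limma) and Ctnnbip1 and Prickle1 were higher (1.10-fold and 1.15-fold, adjusted p = 0.0368 and 0.00691). Wnt9a missed the rule only by its level. Of 74 RNA-binding regulators apart from Mex3b and Zc3h6, 1 was lower, Zc3h7a, and 0 higher (9 at an unadjusted p under 0.05). Of the 9 genes of purine synthesis measured beside Ppat, 0 passed in limma, with 3 lower and 1 higher at an unadjusted p under 0.05, and the largest decrease was that of Pfas (log2 difference -0.10, adjusted p = 0.295 in limma). The sulfotransferase gene Hs3st2, a relative of Hs3st1, was higher (1.17-fold, adjusted p = 0.00328 in limma). The other lists hold no gene of the 37, as Dact2 was listed under the Wnt pathway and not under TGF-beta. In limma 1 gene was lower and 4 higher of 45 in the TGF-beta and BMP pathway, 1 and 4 of 48 regulators of Ras and Rap, 1 and 1 of 40 in the mTOR pathway, and 1 and 3 of 42 leucine-rich repeat proteins. The counts were 0 and 1 of 57 axon guidance genes (7 and 8 at an unadjusted p under 0.05), 1 and 2 of 50 monoamine, acetylcholine and adenosine receptors, and 0 and 0 of 25 GABA genes (1 and 1). Over all 10 pathway lists, which hold 478 genes apart from the 37, 7 were lower (1.46%, against 0.844% of all genes) and 19 higher (3.97%, against 2.62%), with a median log2 difference of 0.00. The 7 became 4 with the RNA quality covariate, with the floor at the 40th percentile or without the dimmest 40% of probe sets, 3 without exposed animals 3 and 5, and 2 with the replicate number as a block, under which the 19 became 10.

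Markers of cell types and regions were checked beside the 37 genes, which include none of them. Of 154 marker entries in 14 lists, a marker in 2 lists being counted in each, 0 were lower and 3 higher in limma. Over all genes the shares were 0.844% lower and 2.62% higher. At an unadjusted p under 0.05 in limma, 15 entries were lower and 17 higher. The share of all genes at that threshold is not given here. The 3 higher ones were Nr4a2 (cortex and hippocampus), Hcrtr2 (hypothalamus) and Cd24 (neuroblasts). Nr4a2 is also on the list of immediate early transcription factors. For the forebrain label, none of 12 striatal markers and none of 12 markers of cortex and hippocampus was at the floor on all arrays. The summed intensity of the first ran from 20479.9 to 22516 in control and from 20590.2 to 23414 in exposed animals, and that of the second from 15554 to 16677 and from 14725 to 16777. Markers of hindbrain were not analysed here. Markers of neurons in general, 16 genes, summed to between 98573 and 103674 in control and between 99627 and 104059 in exposed animals. Lists with a median log2 difference below -0.1 were those of meninges and fibroblasts (-0.11 over 12 genes, 9 of them negative) and of olfactory bulb and neuroblasts (-0.12 over 9 genes, 6 negative). Their summed intensities overlapped between the groups, at 26282 to 30199 in control and 24494 to 28562 in exposed animals for the first and 4577 to 7101 and 4857 to 5283 for the second. Of the endothelial and mural markers 14 of 17 were negative, with a median of -0.05 and summed intensities of 10522 to 11561 in control and 10659 to 11032 in exposed animals. For comparison, 47.8% of all 14217 genes and 55.1% of the 8956 genes with a mean of 8 or more had a negative difference. At an unadjusted p under 0.05 in limma, 4 endothelial and mural markers were lower and 1 higher. The lower ones included Emcn (log2 difference -0.23), Pdgfrb (-0.21) and Rgs5 (-0.15), and the higher one was Slc2a1 (0.20). The counts were 2 and 1 for meninges and fibroblasts, and 1 and 2 for olfactory bulb and neuroblasts. No marker of these 3 lists was at the floor on all arrays. Their part in the differences of the 37 genes was not tested.

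The 37 genes lie on 16 chromosomes in RefSeq (GRCr8), and 0 pairs of them are next to each other among protein-coding genes. Pairs that lie close with other genes between them were not counted. On chromosome 3 the promoter stretches of Nrarp and Tmem203 start at 28390495 and 28468812, and those of Klhl23 and Erich2 at 74988528 and 75718482. Their median span in the genome was 18.6 kb, against 25.2 kb for the 8925 genes with a mean of 8 or more that matched. The span ran from 0.829 kb for Tmem203 to 296 kb for Tox. Mex3b (4.24 kb) and Nrarp (2.56 kb) were short, and Zc3h6 (61.4 kb), Prom1 (105 kb) and Cdh10 (222 kb) long.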

How the data were processed

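Forebrain RNA of 12 rats was measured on 12 arrays. The deposited values are linear probe set intensities. Whether and how the authors subtracted background, combined probes or scaled arrays to each other was not stated in the labels. No further normalization was applied, since the log2 medians of the arrays differed by at most 0.06. Intensities were raised to their 20th percentile (53.8) over 31042 probe sets, without 57 array control probe sets, and put on the log2 scale. Symbols came from the platform annotation (20826 probe sets with 1 symbol). Groups were compared with limma 3.58.1 in R 4.3.3 (lmFit, eBayes with a trend, group as the only term) and Benjamini-Hochberg adjustment, with an adjusted p under 0.05 as a call. The fit was tested on simulated data. Descriptions used Python 3.11.15. The 37 genes and the gene lists were chosen with earlier results of these data known, and the roles, relatives and motifs after the values were seen. All of the 37 genes are named, with the largest differences in full, and other genes are relatives, partners, list members by smallest p and genes next to a threshold. Alternatives were quantile normalization, median centring, floors at the 10th and 40th percentile, other probe set choices, no trend, a filter on dim probe sets, RNA quality as a covariate, the replicate number as a block and leaving out animals. Each animal is 1 array, and the number of arrays limits the precision.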

Additional observations from a re-analysis of the deposited data

Results flagged for a closer look

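In 76 groups of 6 values (37 genes in both groups, and RNA quality in both), a sample stood far from the others of its group 6 times by Dixon's criterion, used here only to describe. Its nominal rate of 1 in 20 groups cannot be read as the chance rate, since the 37 genes were selected on these values and share the same 12 animals. Exposed animal 3 accounted for 3 of these. Its RNA quality measure was 0.59 (others 0.39 to 0.44), its Ppat intensity 347 (others 447 to 498) and its C2h3orf80 intensity 254 (others 298 to 322). Exposed animal 4 was low in Tnfrsf11b at 241 (others 318 to 362). Control animal 5 was low in Zc3h6 at 561 (others 667 to 733), and control animal 6 was high in Prom1 at 858 (others 791 to 814).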

How the results depend on the processing

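All 37 differences kept their sign under each of 21 alternatives, but under many of these the sign could not change. Leaving out animals keeps every exposed value below every control value. Both other floors lie below all values of the 37 genes, and a block by replicate number leaves the mean difference as it was. The differences of 4 genes moved by more than the spread between animals, all when a gene was given the average over its probe sets: Gucy1a1 (-0.35), Rffl (-0.07), Abca8 (-0.17) and Ccdc177 (-0.19). The median of the 37 genes was -0.21 with the RNA quality covariate and -0.27 to -0.23 with 1 animal left out. The number of genes that met the rule was 34 to 57 with 1 animal left out, the highest without control animal 4. With 5 values in a group the condition of no overlap is less strict than with 6, so these counts are not directly comparable with 37. Without exposed animal 3, 28 of the 37 genes still met the rule. In limma, genes called lower, 120 with all animals, were 38 with the RNA quality covariate, 41 with the replicate number as a block, 55 without exposed animals 3 and 5, and 60 to 120 with 1 animal left out (61 without control 3, 68 without control 5, 69 without control 6, 60 without exposed 1 and 75 without exposed 2). The number of genes called higher was 228 with the replicate block, in place of 372. Pathway list genes called lower, 7 with all animals, were 4 with the floor at the 40th percentile, the covariate or the filter on dim probe sets, 2 with the block and 3 without exposed animals 3 and 5, and those called higher were 10 with the block in place of 19. The cause of these shifts was not tested. Same-numbered animals deviated together (correlation over 0.1) in 2 of 6 pairs, so the numbers were not taken to pair the animals. The RNA quality difference was 0.03 to 0.07 with 1 animal left out.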

Other observations

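Gene families were also counted by the start of their symbols, apart from the 37 genes. Over all 14217 genes 0.844% were lower and 2.62% higher in limma, and no difference of a family from these shares was tested. Of 273 zinc finger genes of the Zfp, Znf, Zbtb, Zkscan and Zscan names 4 were lower (1.47%) and 5 higher (1.83%) in limma, and of 103 RING and TRIM genes 2 were lower (1.94%) and 4 higher (3.88%). Of 86 F-box and Kelch-like genes 0 were lower and 2 higher (2.33%), with 10 lower and 6 higher at an unadjusted p under 0.05. The share of all genes at that unadjusted threshold is not given here. Of 357 genes with Ccdc, Fam and Tmem names 3 were lower (0.840%) and 6 higher (1.68%). Of 295 solute carrier genes 5 were lower (1.69%) and 6 higher (2.03%). Of 23 cadherin and protocadherin genes 1 was lower (4.35%) and 0 higher (3 and 1 at an unadjusted p under 0.05). Of 37 orphan G protein-coupled receptor genes 1 was lower (2.70%) and 1 higher (2.70%), with 7 and 3 at the unadjusted threshold. Of 47 homeobox, forkhead and Sox genes 0 were called. None of 28 genes whose symbols start like those of mitochondrial respiratory subunits, some of which are assembly factors or pseudogenes, was called in limma or reached an unadjusted p under 0.05. Of 128 genes with ribosomal protein names 0 were called in limma (8 lower and 1 higher at an unadjusted p under 0.05), and 83 had a negative difference with a median of -0.01. A negative difference was found for 47.8% of all 14217 genes and for 55.1% of the 8956 with a mean of 8 or more. The median of those 8956 was also -0.01.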
